A study of Homo sapiens with 24 samples.

Results

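Small nucleolar RNA host genes were examined here in OE33 cells, a human esophageal adenocarcinoma line. The 10 genes, GAS5, SNHG1, SNHG5, SNHG6, SNHG8, SNHG12, SNHG15, SNHG16, ZFAS1 and EPB41L4A-AS1, were taken by name, through their Ensembl identifiers, from the 61860 rows of each count table, and all 10 passed the filter on low counts in all 4 experiments. The 24 poly(A)-selected RNA-seq libraries formed 8 groups of 3. In the xenograft experiment, OE33 cells were injected under the skin of male BALB/c-nu nude mice, 4 weeks old at purchase. The mice had been fed for 8 weeks with high-fat (HFD) or normal (ND) chow, and the tumors grew for 3 weeks while each diet went on. In the other experiments, cultured OE33 cells received a plasmid for HA-tagged TRIM15 (HA-TRIM15) or the empty vector (EV) for 48 h, a short hairpin RNA against YY2 (shYY2) or shControl for 72 h, or a hairpin against FOXRED1 (shFOXRED1) or its own shControl for 72 h. Nude mice lack T cells but keep other host cells, HFD mice were selected by body weight in the study's methods, 1 hairpin label stands for each knockdown, and nothing states whether libraries of a group came from separate cultures. The p-values below therefore measure only the spread between these libraries, which may be technical.

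These genes are transcribed into RNAs whose introns are cut into small nucleolar RNAs (snoRNAs). Box C/D snoRNAs guide ribose methylation and box H/ACA snoRNAs guide pseudouridylation of ribosomal and spliceosomal RNA. The spliced exons leave as a long noncoding RNA, which for several hosts is loaded on ribosomes and degraded by nonsense-mediated decay. Many hosts start with a terminal oligopyrimidine (TOP) tract, as ribosomal protein mRNAs do, so their output has long been linked to growth and translation. Several are often described as raised in tumors, whereas GAS5 takes its name from growth arrest.

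The sequence around the transcription start was read for a TOP tract. RefSeq (GRCh38.p14) held a promoter for 8 of the 10 genes, SNHG6 and SNHG15 not being among them. A tract, defined as a C followed by at least 4 pyrimidines on the transcript strand and starting within 20 bases of the annotated start, was found in 6 of the 8, against 49.8% of 35116 promoters, so a tract by this definition is common and is not read as a trait of the members. In SNHG5, SNHG8, SNHG12 and ZFAS1 the tract touched the annotated first base, which held for 14.5% of all promoters. The lines below give 40 bases before the start and the first 25 transcribed bases, with tracts in capitals, for the 6 genes with a tract and for EPB41L4A-AS1, which had none. They lie at chr11:62855861-62855925 (minus strand, SNHG1), chr6:85678709-85678773 (minus, SNHG5), chr4:118278722-118278786 (plus, SNHG8), chr1:28581849-28581913 (minus, SNHG12), chr17:76557724-76557788 (plus, SNHG16), chr20:49278602-49278666 (plus, ZFAS1) and chr5:112160486-112160550 (plus, EPB41L4A-AS1).
SNHG1: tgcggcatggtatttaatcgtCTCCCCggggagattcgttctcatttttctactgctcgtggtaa
SNHG5: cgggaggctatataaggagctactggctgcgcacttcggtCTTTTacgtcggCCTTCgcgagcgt
SNHG8: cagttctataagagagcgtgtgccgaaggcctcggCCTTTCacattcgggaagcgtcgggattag
SNHG12: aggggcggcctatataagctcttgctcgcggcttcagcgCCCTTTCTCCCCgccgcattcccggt
SNHG16: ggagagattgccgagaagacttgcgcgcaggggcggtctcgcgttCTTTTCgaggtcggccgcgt
ZFAS1: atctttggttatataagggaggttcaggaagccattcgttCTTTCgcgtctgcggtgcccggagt
EPB41L4A-AS1: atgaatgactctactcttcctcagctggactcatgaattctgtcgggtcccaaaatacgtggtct
The GAS5 promoter in the table belongs to a start upstream of the annotated GENCODE start and held no tract. The SNHG1 tract lies before its RefSeq start but after its GENCODE start. For SNHG5, SNHG8, SNHG12 and ZFAS1 too the starts differ, and the printed RefSeq start lies inside the GENCODE gene. That their tracts touch the first base therefore holds for the RefSeq start. A tract is a description of these letters and no proof of a TOP mRNA.

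The count tables held 14299807 to 45994561 counts per library, so the precision of a member follows its own count, from 31 counts for SNHG5 in the poorest library to 9380 for GAS5 in the richest. The targeted genes moved with their labels. TRIM15 had 111, 130 and 181 counts with HA-TRIM15 and 0 in every EV library, and 14, 12 and 24 counts with HFD against 1, 0 and 0 with ND. YY2 had 11, 12 and 11 counts with shYY2 against 43, 40 and 46 with shControl, and FOXRED1 183, 207 and 129 with shFOXRED1 against 322, 259 and 254. The 8 epithelial markers summed to 11809 to 17913 CPM (counts scaled to the effective library size) in every library, with 14866 to 15098 in HFD against 13749 to 14102 in ND and 17389 to 17913 in shYY2 against 12855 to 13695 in its control. The 4 leukocyte, 4 endothelial and 4 adipocyte markers summed to at most 0.531, 0.889 and 1.34 CPM. All markers here are rows of human genes, while host cells of the xenografts are mouse cells, so these sums do not measure host content. The 5 fibroblast markers summed to 10.5 to 43.9 CPM, nearly all of it COL1A1, with 23.7 to 27 CPM in HFD against 30.4 to 33.5 in ND, 11.1 to 11.9 in HA-TRIM15 against 12 to 13.3 in EV, 42.3 to 43.9 in shYY2 against 10.5 to 11.1 in its control and 38.4 to 41.7 in shFOXRED1 against 24.1 to 25.5. The 3 squamous markers, mostly KRT14, summed to 5.22 to 5.35 CPM in HFD against 3.35 to 4.08 in ND, 5.4 to 5.7 in HA-TRIM15 against 1.98 to 2.58 in EV, and 3.18 to 4.06 in shYY2 against 6.91 to 7.63 in its control. The part of these markers in the results was not tested. Replicate 3 of shFOXRED1 stood apart from the other 2, with a chi-square per gene of 8.09 and 7.01, where the remaining pairs within groups had 1.47 to 5.25.

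Per length, GAS5 was the most abundant member in all 8 groups, at 37.7 to 80 CPM per kilobase of exon, and SNHG5, the host of SNORD50B, was the least abundant, at 0.83 to 2.5. Exon lengths were the union of exons over all annotated transcripts in GENCODE 29 (GRCh38), so they are not the length of 1 spliced RNA. The union was 4266 of the 4595 bases of SNHG12 but 1247 of the 4715 bases of SNHG6, and the order depends on it. In ND, SNHG15 had more CPM than SNHG8, 29.3 ± 1.85 against 20.4 ± 2.26 (SD, n = 3), yet less per kilobase. SNHG1, which holds 7 annotated snoRNA rows, came next after GAS5 in 7 groups, at 19.1 to 56.4 CPM per kilobase. It had rank 4 in shFOXRED1 at 16.4 ± 0.204 (SD, n = 3), within the spread of SNHG8 at 16.7 ± 1.04. Its place was also within the spread in ND, at 26.4 ± 1.31 against 25.2 ± 1.85 for SNHG6. The same held against SNHG8 in HFD (31.2 ± 0.606 and 30.6 ± 1.13) and in the FOXRED1 shControl (19.1 ± 0.546 and 18.7 ± 2.07). SNHG6, SNHG8 and ZFAS1 came next in ND, at 25.2 ± 1.85, 22.1 ± 2.45 and 25.2 ± 0.889 CPM per kilobase (SD, n = 3), within their spread. In EV they stood at 26 ± 1.11, 27.3 ± 0.825 and 17.9 ± 0.636 CPM per kilobase, where ZFAS1 was lower than the other two by more than the spread. SNHG15, SNHG16, SNHG12 and EPB41L4A-AS1 lay lower, at 8.03 ± 0.508, 7.5 ± 0.409, 4.16 ± 0.113 and 4 ± 0.108 CPM per kilobase in ND, where SNHG12 and EPB41L4A-AS1 differed by less than the sum of their SDs.

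**Figure D1:**
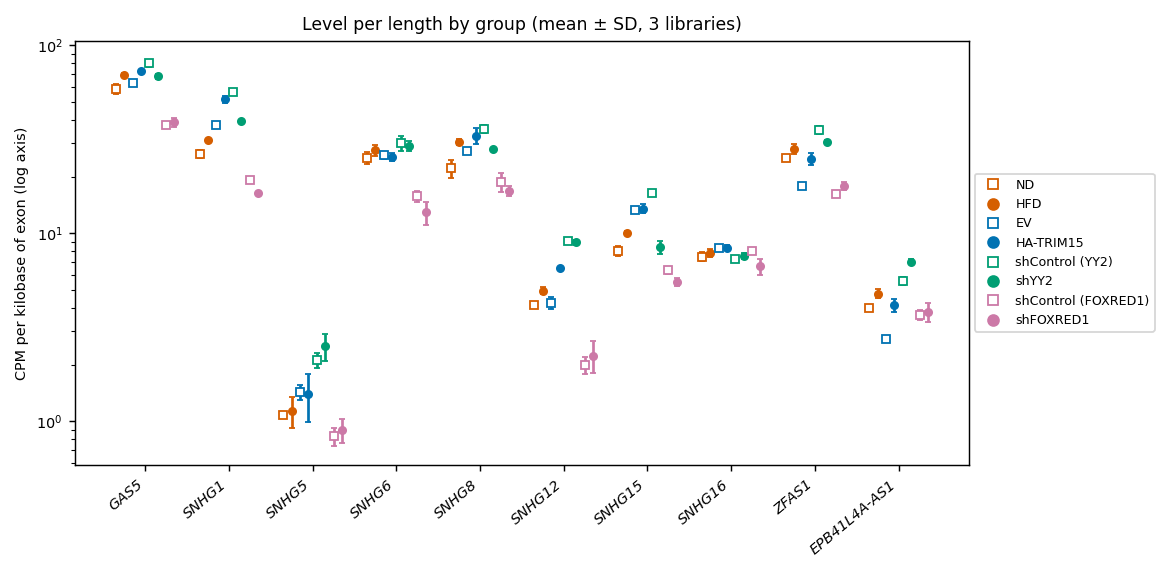
Level of each member in CPM per kilobase of exon (log axis), by group, as mean ± SD of 3 libraries; open squares are controls, filled circles treated groups, and colors mark the experiment. GAS5 is highest and SNHG5 lowest in every group, and 9 of the 10 members, all but SNHG16, are lower in both groups of the FOXRED1 experiment than in both groups of the YY2 experiment.

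In HFD xenografts, most of the 10 members were modestly higher than in ND xenografts. GAS5, SNHG1, SNHG8, SNHG12, SNHG15, ZFAS1 and EPB41L4A-AS1 passed the test (edgeR quasi-likelihood, adjusted p under 0.05 over all genes), by 1.11 to 1.40 fold, and none was lower. That is 7 of 10 members higher, where 25.6% of the 17012 genes tested were higher and 49.5% were called in either direction, and the median log2 fold change of the 10 was 0.25 against -0.01 for all genes. A tumor with fewer cells that express a host and one with less host RNA per cell cannot be told apart in these bulk samples.

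SNHG8, a short host of SNORA24 on chromosome 4 (118278709 to 118279823, plus strand), moved most. It was at 28.6, 28.9 and 27 CPM in HFD tumors and 19.7, 18.5 and 22.9 CPM in ND tumors. The groups did not overlap, and the log2 fold change was 0.48 ± 0.07 (SE; edgeR adjusted p = 2.85e-05). SNHG15, the host of SNORA9 on chromosome 7 (44983023 to 44986961, minus strand), was at 35.9, 35.9 and 37.4 CPM with HFD and 27.3, 29.6 and 30.9 CPM with ND. All HFD libraries were above all ND libraries (log2 fold change 0.32 ± 0.053 SE, edgeR adjusted p = 0.000104).

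GAS5, known as a decoy RNA for the glucocorticoid receptor, lies on chromosome 1 (173863900 to 173868882, minus strand). It had 251, 259 and 246 CPM with HFD and 219, 196 and 221 CPM with ND, again without overlap (log2 fold change 0.25 ± 0.044 SE, edgeR adjusted p = 0.000159). SNHG1, on chromosome 11 (62851988 to 62855914, minus strand), had 117, 119 and 115 CPM with HFD and 102, 93.6 and 102 CPM with ND. Its difference was of like size, 0.24 ± 0.041 log2 units (SE; edgeR adjusted p = 0.000134). SNHG12 (log2 fold change 0.25 ± 0.061 SE) and EPB41L4A-AS1 (0.26 ± 0.069), the host of SNORA13, were also higher without overlap between groups (edgeR adjusted p = 0.00265 and 0.0047). In all, 6 members did not overlap between the groups, where 56.2% of all genes did not.

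ZFAS1, the host of SNORD12, SNORD12B and SNORD12C on chromosome 20 (49278178 to 49295738, plus strand), was at 64.1, 58.2 and 65.9 CPM with HFD and 54.4, 58.2 and 57.3 CPM with ND. The groups touched at 58.2, and the call (log2 fold change 0.15 ± 0.048 SE, edgeR adjusted p = 0.0153) was lost without HFD replicate 1 (edgeR adjusted p = 0.0578), HFD replicate 3 (0.109) or ND replicate 1 (0.0612). SNHG6, at 31.8 to 36.1 CPM with HFD and 28.8 to 33 with ND, missed the threshold (log2 fold change 0.14 ± 0.063 SE, edgeR adjusted p = 0.0864), but passed without HFD replicate 3 (edgeR adjusted p = 0.0242) or ND replicate 3 (0.043). SNHG5 and SNHG16 had log2 fold changes of 0.09 ± 0.14 and 0.07 ± 0.052 (SE), with overlapping groups. With total counts in place of TMM scaling, which moved the median of all genes to -0.122, GAS5, SNHG1, SNHG8 and SNHG15, 4 members, stayed past the threshold, and 2800 genes were higher and 6415 lower in place of 4354 and 4061.

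**Figure D2:**
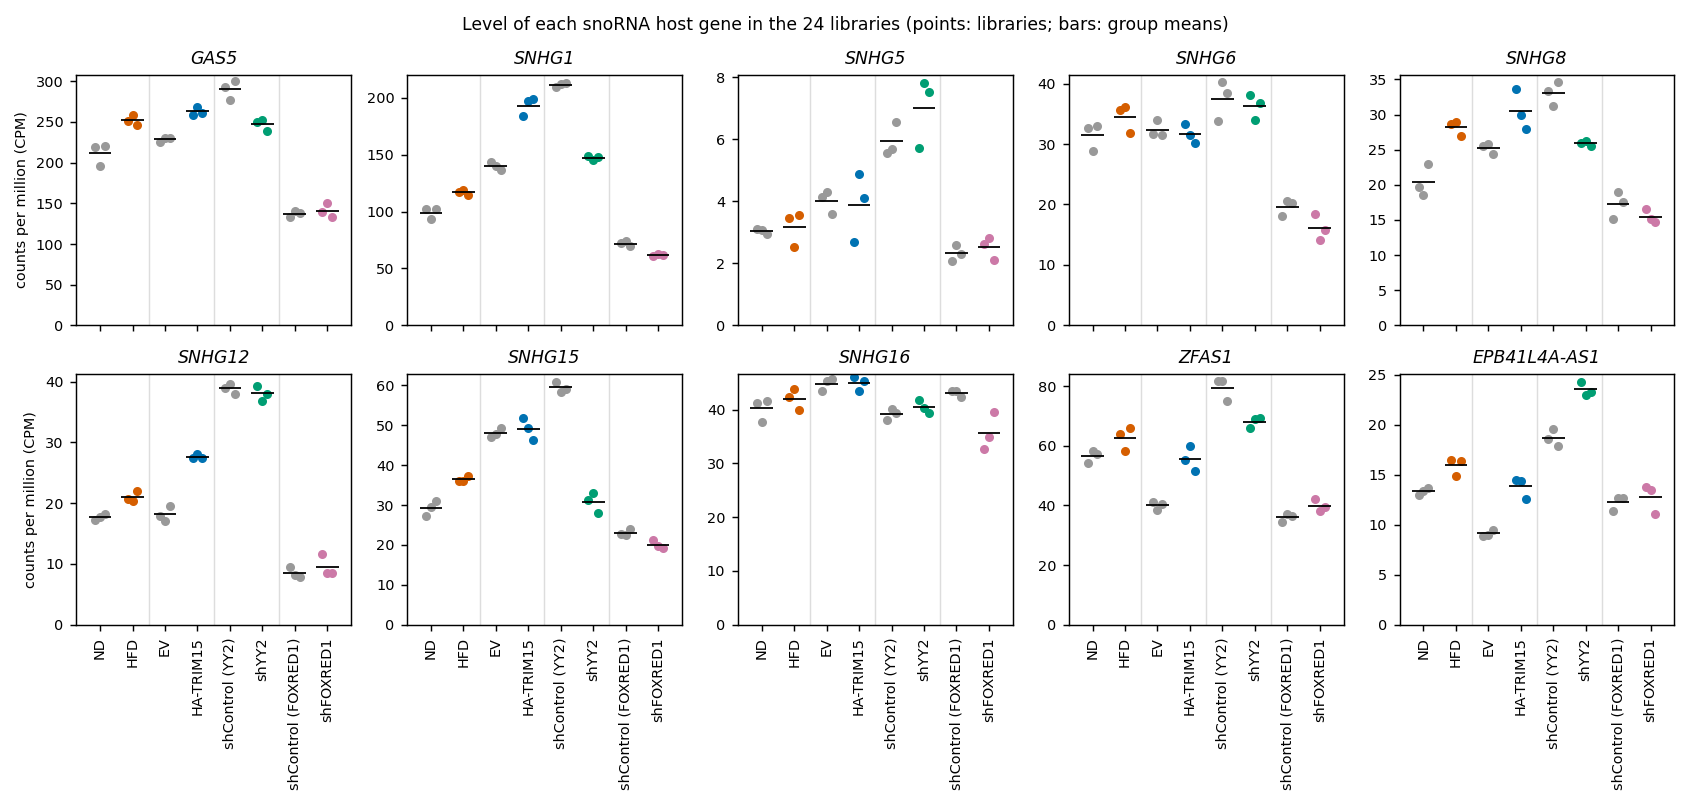
CPM of the 10 members in every library, 1 panel per gene with its own axis from 0; points are libraries, bars are group means, gray marks controls. HFD libraries of SNHG8 and SNHG15 lie above all ND libraries, HA-TRIM15 libraries of SNHG12 and EPB41L4A-AS1 above all EV libraries, and shYY2 libraries of SNHG15 and SNHG1 below all of their shControl libraries.

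In cells with HA-TRIM15, an E3 ubiquitin ligase of the tripartite motif family, 6 members were higher and none lower. These were SNHG12, EPB41L4A-AS1, ZFAS1, SNHG1, SNHG8 and GAS5, by 1.15 to 1.52 fold. Among all 15745 genes tested 12.5% were higher and 22.1% were called in either direction, and the median log2 fold change was 0.24 for the members and -0.01 for all genes. The same 6 did not overlap between groups, where 37.7% of all genes did not.

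SNHG12, the host of 5 annotated snoRNA rows on chromosome 1 (28578538 to 28583132, minus strand), was at 27.5, 28.1 and 27.4 CPM with HA-TRIM15 and 17.9, 17 and 19.6 CPM with EV. Every HA-TRIM15 library was above every EV library, at a log2 fold change of 0.60 ± 0.066 (SE; edgeR adjusted p = 1.52e-05) that exceeded those of 97.9% of the genes tested. EPB41L4A-AS1, on chromosome 5 (112160526 to 112164276, plus strand), was at 14.5, 14.4 and 12.6 CPM against 8.88, 9.01 and 9.48 CPM. Its log2 fold change was 0.60 ± 0.086 (SE; edgeR adjusted p = 0.000201). These were the 2 members past 1.5 fold.

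SNHG1 was at 184, 197 and 199 CPM with HA-TRIM15 and 144, 140 and 137 CPM with EV (log2 fold change 0.46 ± 0.038 SE, edgeR adjusted p = 8.57e-07). ZFAS1 was at 55.4, 59.9 and 51.5 CPM against 41.2, 38.4 and 40.5 CPM (0.47 ± 0.055 SE, edgeR adjusted p = 2.49e-05). Both were higher in 3 of 3 libraries than in any control. GAS5 was at 259, 269 and 261 CPM against 226, 230 and 230 CPM, a narrow but clean separation (0.20 ± 0.031 SE, edgeR adjusted p = 0.000364). SNHG8 was at 33.6, 30 and 27.9 CPM against 25.5, 25.8 and 24.4 CPM (0.28 ± 0.067 SE, edgeR adjusted p = 0.00777), and without EV replicate 3 it missed the threshold (edgeR adjusted p = 0.053).

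The other 4 members had overlapping groups. SNHG15, higher with HFD, was at 51.7, 49.4 and 46.3 CPM with HA-TRIM15 and 47, 47.8 and 49.3 CPM with EV (log2 fold change 0.03 ± 0.049 SE). SNHG16 had 0.00 ± 0.046, SNHG6 -0.03 ± 0.055 and SNHG5 -0.07 ± 0.18 log2 units (SE). The SE of SNHG5 is the widest, at 55 to 98 counts per library.

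**Figure D3:**
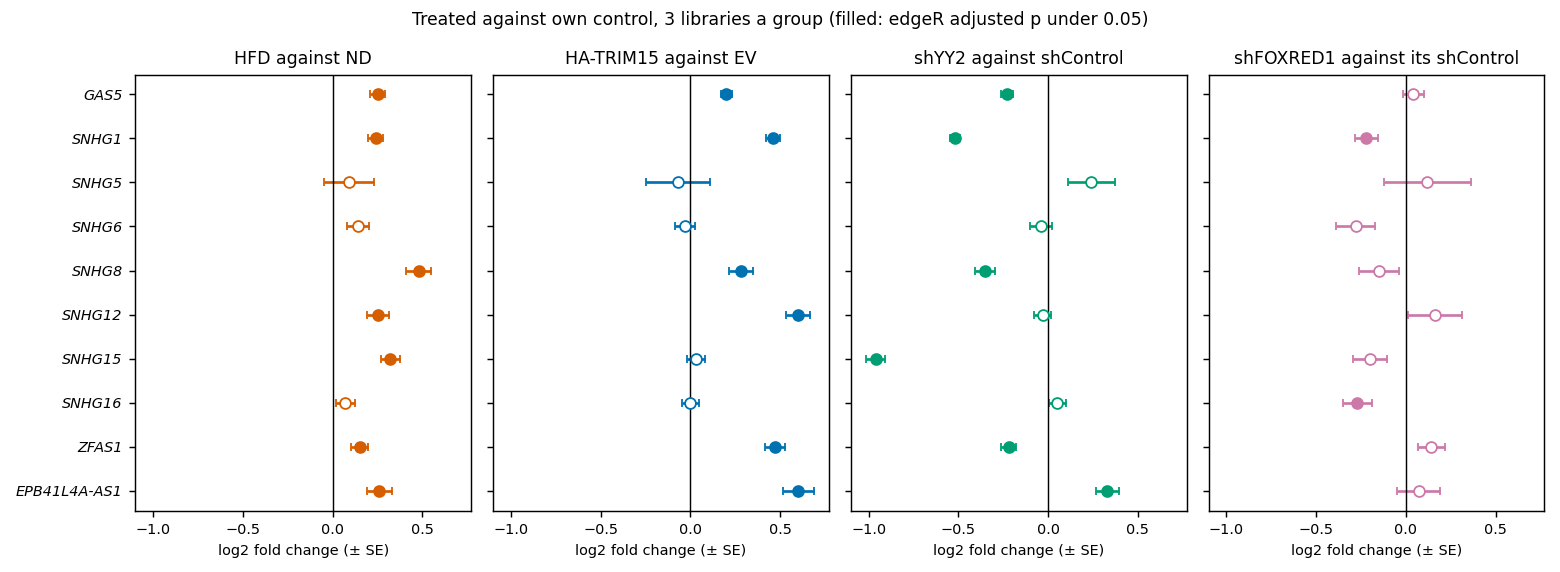
Log2 fold change ± SE of each member (treated against its own control, 3 libraries a group) in the 4 comparisons, filled where the edgeR adjusted p was under 0.05. In the HFD and HA-TRIM15 comparisons 7 and 6 members are filled to the right of 0 and none to the left, in the shYY2 comparison 5 are filled to the left and 1 to the right, and in the shFOXRED1 comparison 2 are filled to the left.

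YY2 is a zinc finger transcription factor closely related to YY1. In shYY2 cells, 5 members were lower and 1 was higher than in shControl cells. SNHG15, SNHG1, SNHG8, GAS5 and ZFAS1 fell, and EPB41L4A-AS1 rose. The experiment moved most genes: 38.1% of the 16006 tested were lower and 36.8% higher, so 6 of 10 members called is a smaller share than the 75% of all genes called in either direction. The median log2 fold change was -0.13 for the members and -0.01 for all genes, and 6 members did not overlap between groups, where 76.3% of all genes did not.

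SNHG15 was at 31.2, 32.9 and 27.9 CPM with shYY2 and 60.8, 58.4 and 59.2 CPM with shControl. It fell to 0.515 of the control level (log2 fold change -0.96 ± 0.054 SE, edgeR adjusted p = 1.67e-10), the widest gap of any member in the 4 comparisons, and was the only member past 1.5 fold here. Only 9.53% of all genes tested had a lower log2 fold change. SNHG1 was at 149, 145 and 148 CPM against 210, 212 and 213 CPM, with 6 libraries in tight groups (log2 fold change -0.52 ± 0.028 SE, edgeR adjusted p = 1.07e-10).

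SNHG8 was at 26, 26.3 and 25.5 CPM with shYY2 against 33.3, 31.2 and 34.7 CPM (log2 fold change -0.35 ± 0.055 SE, edgeR adjusted p = 3.04e-05). GAS5 was at 250, 253 and 239 CPM against 293, 277 and 300 CPM (-0.23 ± 0.034 SE, edgeR adjusted p = 1.64e-05). ZFAS1 was at 66.1, 69 and 69.3 CPM against 81.8, 81.7 and 74.9 CPM (-0.22 ± 0.041 SE, edgeR adjusted p = 0.00018). In all of these every shYY2 library was below every shControl library.

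EPB41L4A-AS1 went the other way, at 24.3, 23 and 23.3 CPM with shYY2 against 18.6, 19.6 and 17.9 CPM (log2 fold change 0.33 ± 0.063 SE, edgeR adjusted p = 0.000168). SNHG12, higher with HFD and with HA-TRIM15, was at 39.3, 36.9 and 38 CPM against 39, 39.7 and 38 CPM (-0.03 ± 0.047 SE). SNHG5 was at 5.72, 7.8 and 7.52 CPM against 5.55, 5.67 and 6.56 CPM. Its log2 fold change of 0.24 ± 0.13 (SE; edgeR adjusted p = 0.105) passed the threshold only when shYY2 replicate 1 was left out (0.37, edgeR adjusted p = 0.0163). SNHG6 and SNHG16 had -0.04 ± 0.064 and 0.05 ± 0.047 log2 units (SE).

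FOXRED1 is an assembly factor of mitochondrial complex I. In shFOXRED1 cells 2 members, SNHG1 and SNHG16, were lower and none higher, where 19.7% of the 15730 genes tested were lower, 16.8% higher and 36.6% either. The median log2 fold change was -0.06 for the members and 0.01 for all genes, and the groups of 4 members did not overlap, where those of 46.7% of all genes did not.

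SNHG1 was at 60.9, 62.4 and 61.8 CPM with shFOXRED1 and 72.2, 73.8 and 69.7 CPM with shControl (log2 fold change -0.22 ± 0.062 SE, edgeR adjusted p = 0.0096). SNHG16, the host of 3 annotated SNORD1 snoRNAs on chromosome 17 (76557766 to 76565348, plus strand), was at 32.6, 35 and 39.5 CPM against 43.4, 43.5 and 42.3 CPM (-0.27 ± 0.08 SE, edgeR adjusted p = 0.012). Neither overlapped. The SNHG1 call was lost without shControl replicate 2 (edgeR adjusted p = 0.057) and the SNHG16 call without shFOXRED1 replicate 1 (0.0778) or 2 (0.0507). Without shFOXRED1 replicate 3, the library that stood apart, both stayed past the threshold (edgeR adjusted p = 0.00274 and 0.000197).

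The remaining members did not pass. SNHG15, at 19.2 to 21.2 CPM against 22.4 to 24.1 CPM, and ZFAS1, at 38 to 42.1 against 34.5 to 37.3 CPM, did not overlap but missed the threshold (log2 fold changes -0.20 ± 0.092 and 0.14 ± 0.075 SE, edgeR adjusted p = 0.1 and 0.148). SNHG6, at 18.5, 14.1 and 15.7 CPM against 18.1, 20.5 and 20.2 CPM, had a log2 fold change of -0.28 ± 0.11 (SE; edgeR adjusted p = 0.0636), which passed without shFOXRED1 replicate 1 (edgeR adjusted p = 0.0174). GAS5, SNHG5, SNHG8, SNHG12 and EPB41L4A-AS1 overlapped, with log2 fold changes from -0.15 to 0.16.

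Across the comparisons GAS5, SNHG1, SNHG8 and ZFAS1 were higher with HFD and HA-TRIM15 and lower with shYY2, and SNHG1 was the only member past the threshold in all 4. SNHG5 and SNHG6 passed in none. How many of all genes share these patterns over the comparisons was not counted, so the patterns are not read as a trait of the members. The difference between the HA-TRIM15 and shYY2 effects passed the test for 6 members, all with the higher value under HA-TRIM15, where 57.4% of 17980 genes differed. The largest were SNHG15, 0.95 ± 0.081 log2 units, and SNHG1, 0.94 ± 0.055 (SE; edgeR adjusted p = 1.34e-11 and 2.26e-15). The HFD and HA-TRIM15 effects differed for 5 members (28.4% of all genes), and the shYY2 and shFOXRED1 effects for 6 (55.5%).

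The control groups themselves differed in level between experiments. GAS5 was at 277 to 300 CPM in the shControl libraries of the YY2 experiment and 133 to 140 in those of the FOXRED1 experiment. SNHG1 was at 210 to 213 against 69.7 to 73.8 CPM, and SNHG12 at 38 to 39.7 against 7.88 to 9.46 CPM. SNHG16 went against this, at 38 to 40.2 against 42.3 to 43.5 CPM. Differences in culture, library and sequencing between the experiments cannot be told apart from these levels, and no test was made between experiments at the level of expression.

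SNHG1 shares its upstream region with SLC3A2, the heavy chain of CD98 amino acid transporters, and the annotated starts on opposite strands lie 188 bases apart in GENCODE 29. SLC3A2 was at 352 ± 7.31 CPM with HFD and 321 ± 8.94 with ND (SD, n = 3; log2 fold change 0.13 ± 0.035 SE, edgeR adjusted p = 0.00537). With HA-TRIM15 it was at 443 ± 26.1 against 349 ± 3.28 CPM (0.35 ± 0.038 SE, edgeR adjusted p = 1.64e-05), and both genes of the pair were thus higher in these comparisons. With shYY2 it fell further than SNHG1, from 439 ± 16.4 to 166 ± 3.7 CPM (-1.40 ± 0.033 SE, edgeR adjusted p = 7.29e-15). With shFOXRED1 the pair parted: SLC3A2 was higher, 429 ± 31.8 against 345 ± 14.5 CPM (0.31 ± 0.057 SE, edgeR adjusted p = 0.00033), while SNHG1 was lower. The difference between the genes of a pair was not tested.

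The 216 bases between the RefSeq start of SNHG1 and the GENCODE start of SLC3A2 are shown because both genes can be transcribed out of them (GRCh38.p14, chr11:62855886-62856101, printed on the minus strand, that of SNHG1).
SNHG1 and SLC3A2: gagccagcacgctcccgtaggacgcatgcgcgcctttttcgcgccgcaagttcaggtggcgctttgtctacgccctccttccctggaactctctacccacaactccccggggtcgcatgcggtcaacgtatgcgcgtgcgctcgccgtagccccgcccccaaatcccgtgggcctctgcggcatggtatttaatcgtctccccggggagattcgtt
None of the searched motifs was in this stretch. The motifs were CACGTG, the E-box bound by MYC and related factors, CCATNTT, the core shared by YY family sites, and TGATGNAA, the composite element of the stress factor ATF4, each on both strands. Over the 250 bases before to 50 after the start, CACGTG and TGATGNAA were in 0 of the 8 member promoters (7.26% and 3.62% of all promoters). CCATNTT was in 2 of 8, SNHG16 and ZFAS1 (15.6% of all promoters), here with the match in capitals, at 149 and 42 bases before the start.
SNHG16: gtggcggccaCCATCTTacccccagct
ZFAS1: ggtgcgaaagCCATCTTtggttatata
With shYY2, ZFAS1 fell and SNHG16 had a log2 fold change of 0.05, while SNHG15, which fell most, had no promoter in the table. These letters do not show whether a factor was bound.

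By its GENCODE start, ZFAS1 begins inside the 5′ end of ZNFX1, a helicase-like zinc finger gene on the opposite strand. The 5′ ends of these GENCODE genes overlap by 248 bases. The RefSeq start of ZFAS1 printed above lies downstream of this overlap, outside ZNFX1, so the overlap depends on the annotation. ZNFX1 was higher with HA-TRIM15, 327 ± 4.25 against 274 ± 1.32 CPM (SD, n = 3; log2 fold change 0.26 ± 0.03 SE, edgeR adjusted p = 2.56e-05), as ZFAS1 was. It was higher with shFOXRED1, 696 ± 16.8 against 461 ± 16.4 CPM (0.59 ± 0.046 SE, edgeR adjusted p = 3.11e-08), where ZFAS1 had 0.14. It had 0.02 ± 0.034 with HFD and -0.03 ± 0.027 with shYY2, where ZFAS1 was called. Exons of the pair overlap, ZNFX1 had 202280 counts over all libraries to 27809 of ZFAS1, and whether reads were counted by strand is not given in the sources used here, so reads in the overlap cannot be assigned with certainty. The same holds for SNHG12 and TRNAU1AP (11089 and 10389 counts) and for GAS5 and GAS5-AS1 (111871 and 473).

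ZBTB37 is the neighbour of GAS5 on the opposite strand. By its GENCODE start it begins inside GAS5, and the 5′ ends overlap over a longer stretch than those of ZFAS1 and ZNFX1. It rose with shYY2 from 15.9 ± 0.737 to 20.8 ± 2.11 CPM (SD, n = 3; log2 fold change 0.39 ± 0.079 SE, edgeR adjusted p = 0.000335), where GAS5 fell. In the other comparisons it lay between -0.06 and 0.08 log2 units and did not pass. The antisense gene ENSG00000267546 next to SNHG16 was at or below 0.957 CPM on average in the groups tested. It was called with shYY2 alone, at 1.26 ± 0.36 log2 units (SE; edgeR adjusted p = 0.00478).

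The snoRNAs themselves were almost absent from these tables. The 23 snoRNA rows inside the members had 569 counts over all 24 libraries, against 291073 for the hosts. Counts came from SNORD12C (351) and SNORD12B (31) in ZFAS1, SNORD99 (178) in SNHG12 and SNORD1B (9) in SNHG16, all in annotated introns. The 17 rows that lie inside an exon of a transcript were at 0 in every library, as were the intronic SNORD30 in SNHG1 and SNORA13 in EPB41L4A-AS1. Mature snoRNAs have no poly(A) tail and are shorter than the selected fragments, so these rows say nothing on snoRNA levels. How reads over overlapping genes were counted is not given in the sources used here. Why the rows inside exons were all at 0, and whether host counts were affected there, was not tested. No snoRNA row inside GAS5 was in the annotation used.

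Other snoRNA hosts and translation genes were read from lists written with earlier results of these data known. The shares of all genes to set beside their counts are those given above: 25.6% higher and 23.9% lower with HFD, 12.5% and 9.53% with HA-TRIM15, 36.8% and 38.1% with shYY2, and 16.8% and 19.7% with shFOXRED1, with medians of -0.01, -0.01, -0.01 and 0.01. Of 13 other host lncRNAs tested, 4 were higher and 2 lower with HFD, where SNHG19 was highest at 0.43 ± 0.12 and SNHG11 lowest at -0.40 ± 0.069 log2 units (SE). With HA-TRIM15 only SNHG29 (0.20 ± 0.036) was higher and DANCR (-0.22 ± 0.056) lower. With shYY2, 6 were lower, led by SNHG17, from 51.2 to 20.8 CPM (-1.30 ± 0.058), and 2 higher, led by SNHG7 (0.76 ± 0.043). With shFOXRED1, 2 of 11 rose and 2 fell, with SNHG11 at 0.39 and SNHG4 at -0.41. The medians were 0.14, 0.06, -0.20 and 0.04. With 6 of 13 called under HFD and 8 of 13 under shYY2, against 49.5% and 75% of all genes, the list was near or below the background in these comparisons.

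Protein-coding hosts carry snoRNAs in the introns of an mRNA. Of 19 such hosts outside the ribosome, 12 were higher and 1 lower with HFD (25.6% and 23.9% of all genes), with TAF1D, a subunit of the polymerase I selectivity factor, at 0.52 ± 0.034, and 3 were higher and 6 lower with HA-TRIM15, with TAF1D at 0.38 ± 0.034. With shYY2, 14 were lower and 3 higher (38.1% and 36.8% of all genes), with the box C/D core protein NOP56 falling from 347 to 96.3 CPM (-1.85 ± 0.032) and EIF4A2 at 0.63 ± 0.027. With shFOXRED1, 12 were lower and 0 higher (19.7% and 16.8% of all genes), with the chaperone HSPA8 at -0.51 ± 0.043. The listed EIF4A1, lowest with HA-TRIM15 (-0.84), had 6.55 and 11.8 CPM and is taken as uncertain.

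Of 24 ribosomal protein hosts, 14 were higher and 0 lower with HFD (RPL10, 0.30 ± 0.03), 1 higher and 2 lower with HA-TRIM15 (RPL4 at 0.09, RPL23 at -0.11), 6 higher and 7 lower with shYY2 (RPL13A at 0.28, RPL17 at -0.60 on 8.84 and 13.4 CPM), and 0 higher and 14 lower with shFOXRED1 (RPL3, -0.69 ± 0.057). Of 14 TOP translation genes that host no listed snoRNA, 8, 4, 8 and 1 were higher and 1, 1, 4 and 8 lower in the same order of comparisons. Among them EIF4B (0.59) led with HFD, where EIF3F was lowest (-0.16), and the elongation factor EEF1A1 led with HA-TRIM15 (0.12) and shYY2 (0.51). NPM1 was lowest with shYY2 (-0.47), EIF3F with HA-TRIM15 (-0.13) and EIF3L with shFOXRED1 (-0.40), where EEF1D was called higher on 8.15 CPM.

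The 16 snoRNP proteins and assembly factors tested were all lower with shYY2, where 38.1% of all genes were, with a median of -0.70 and TCOF1 falling from 185 to 56.1 CPM (-1.72 ± 0.038). With shFOXRED1, 10 were lower and 0 higher, led by the nucleolar chaperone NOLC1, from 253 to 130 CPM (-0.96 ± 0.052). With HA-TRIM15, 4 were lower (RUVBL2, -0.24) and 0 higher, and with HFD 5 were higher (NOLC1, 0.28) and 1 lower (NOP10, -0.19). The medians in the other comparisons were 0.06 with HFD, -0.07 with HA-TRIM15 and -0.29 with shFOXRED1.

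Nonsense-mediated decay removes several host exons, so its factors and known substrates were read too. Of 16 factors, 6, 4, 2 and 1 were higher and 3, 0, 10 and 2 lower with HFD, HA-TRIM15, shYY2 and shFOXRED1. The 12 of 16 called with shYY2 equal the 75% of all genes called there, and the 3 of 16 with shFOXRED1 are a smaller share than the 36.6% of all genes. SMG1 was highest with HFD (0.25) and PNRC2 lowest (-0.48), and PNRC2 was highest with HA-TRIM15 (0.31). With shYY2 the exon junction subunit RBM8A fell (-0.92) and SMG6 rose (0.30), and with shFOXRED1 RBM8A rose (0.28) and RNPS1 fell (-0.19). Of 14 transcripts known as substrates, 9 were higher and 0 lower with HA-TRIM15, with a median of 0.18 and the stress factor ATF3 from 39.3 to 139 CPM (1.82 ± 0.04). They split elsewhere: 5 higher and 3 lower with HFD (GADD45B 0.50, DDIT3 -0.25), 6 and 8 with shYY2 (GADD45B 1.51, UPP1 -2.24) and 3 and 7 with shFOXRED1 (BAG1 0.48, UPP1 -0.84). All these genes also respond to other inputs, and no list was tested as a set.

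**Figure D4:**
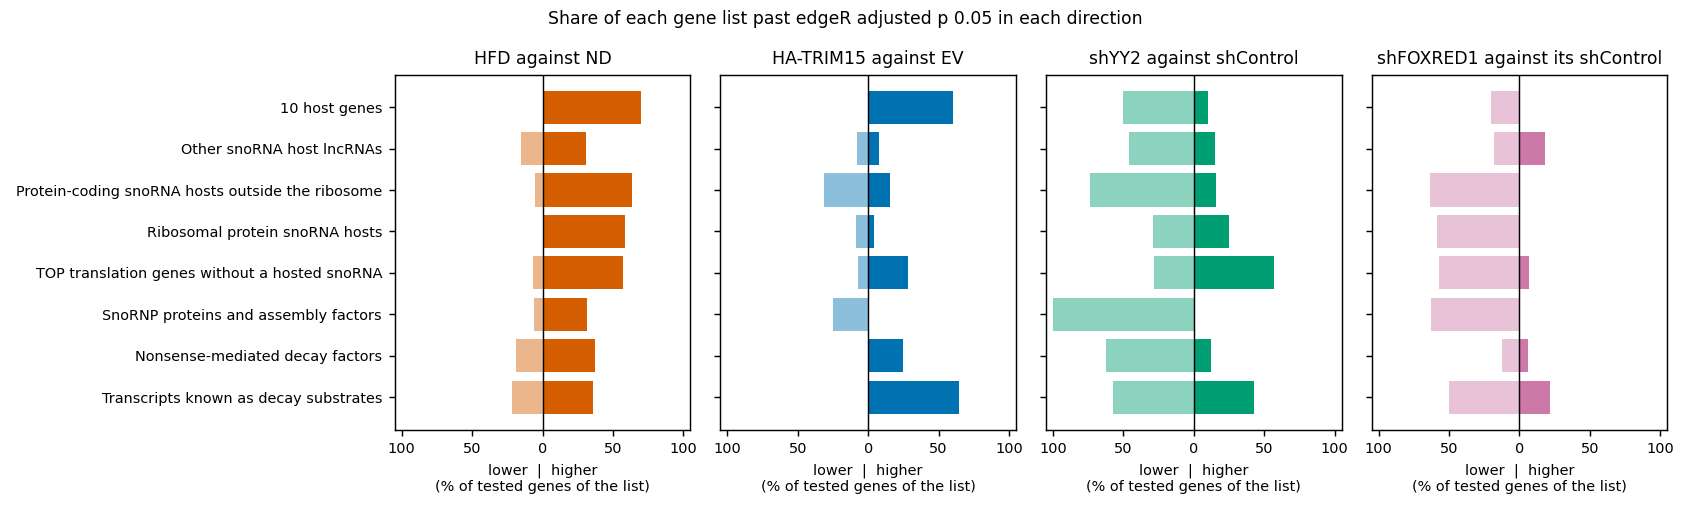
Share of the tested genes of each list with edgeR adjusted p under 0.05, higher (to the right, dark) and lower (to the left, pale), in the 4 comparisons. The 10 host genes reach 7 and 6 higher calls with HFD and HA-TRIM15, while the 24 ribosomal protein hosts have 14 higher with HFD, 1 with HA-TRIM15 and 14 lower with shFOXRED1.

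Members varied together within the experiments to different degrees. Over the 24 libraries, with each experiment's mean taken away from log2 CPM, GAS5 and SNHG8 had a Pearson correlation of 0.85, SNHG12 and ZFAS1 0.82 and GAS5 and SNHG1 0.81, while SNHG5 and SNHG16 had -0.34. The libraries share treatment and depth within each experiment, so these are descriptions. The genes most like the mean of the members, among 14519 tested in all 4 experiments, were HAPSTR1 (0.931), the adhesion molecule ICAM1 (0.921), the interleukin signaling kinase IRAK2 (0.910), the surface glycoprotein CD24 (0.906) and PPTC7 (0.905). ICAM1, for example, had log2 fold changes of 0.62, 0.60, -0.30 and -0.10 with HFD, HA-TRIM15, shYY2 and shFOXRED1, the last not past the threshold.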

How the data were processed

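RNA was measured in 24 libraries, 3 per group, in 4 experiments. Each experiment has its own table of gene-level read counts, which the authors deposited unnormalized. The study's methods describe poly(A) selection and paired-end DNBSEQ reads, and the submitters' processing notes name the builds hg38 and mm10. The aligner, counter, annotation and strand setting are not given in the sources used here: the labels name a directional kit and the methods one that does not mark strand. Identifiers were named from gene tables (99.8% of 61860 rows). In the TRIM15 table, whose header has 10 cells with 3 empty, columns were taken by number. Totals ran from 14299807 to 45994561 counts. Positions, lengths and neighbours came from GENCODE 29, promoters from RefSeq.

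Groups came from the sample titles. In R 4.3.3, each experiment was fitted on the whole table with edgeR 4.0.16 (filterByExpr with a minimum count of 10 and total of 15, TMM, glmQLFit, glmQLFTest, Benjamini-Hochberg adjustment, threshold 0.05). An SE is the size of the fold change (log2) over the root of its F statistic. Differences between effects came from 1 fit of all 24 libraries. CPM values use TMM library sizes. Alternatives used DESeq2 1.42.0, limma 3.58.1, other scalings, filters and a replicate block. The fits were tested on simulated data. A single value with 3 against 3 libraries cannot go below p = 0.1 in an exact permutation test. No 2 libraries of a group agreed within sampling noise (chi-square per gene at least 1.47).

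The text names all members, the targeted genes, head-to-head neighbours within 1000 bases, for each list and direction the called gene that changed most (mean CPM of 1 or more), and the 5 genes most like the members. The members, lists and tests were chosen with earlier results of these data known.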

Additional observations from a re-analysis of the deposited data

Results flagged for a closer look

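The effects of 2 experiments on a member were compared directly in 1 edgeR fit of all libraries, and the differences past an adjusted p of 0.05 are given in log2 units. Between HFD and HA-TRIM15, the HFD effect was smaller for SNHG12 (-0.35), EPB41L4A-AS1 (-0.33), ZFAS1 (-0.32) and SNHG1 (-0.22) and larger for SNHG15 (0.29). Between HA-TRIM15 and shYY2, the HA-TRIM15 effect was larger for SNHG15 (0.95), SNHG1 (0.94), ZFAS1 (0.66), SNHG8 (0.60), SNHG12 (0.60) and GAS5 (0.40). Between shYY2 and shFOXRED1, the shYY2 effect was lower for SNHG15 (-0.71), ZFAS1 (-0.32), SNHG1 (-0.26) and GAS5 (-0.23) and higher for SNHG16 (0.37) and EPB41L4A-AS1 (0.30). Among all 17980 genes, 28.4%, 57.4% and 55.5% differed in the same order. The 6 of 10 members in each of the last 2 are thus near the share of all genes and are not read as a trait of the members. The tables were deposited per experiment, and anything else that differed between 2 experiments cannot be told apart from these differences.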

How the results depend on the processing

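Of 21 called fold changes of members, none changed direction in the 273 alternatives and 10 alternatives lost the call. With total counts the HFD count fell from 7 to 4 higher, and 1 member was higher with shFOXRED1 (over all genes, 1511 higher and 2214 lower with HA-TRIM15 in place of 1973 and 1501, and 3325 and 2476 with shFOXRED1 in place of 2650 and 3102). A fold change of at least 1.5 left 0 members higher with HFD, 2 with HA-TRIM15 and 0 with shYY2, and 1 lower with shYY2 and 0 with shFOXRED1. Leaving out 1 library gave 6 to 8 members higher with HFD, 5 to 6 with HA-TRIM15, 1 to 2 higher with shYY2 (2 without shYY2 replicate 1) and 1 to 2 lower with shFOXRED1 (1 without shFOXRED1 replicate 2 or shControl replicate 2).

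Reversals fell on members not called. With total counts these were SNHG5 (-0.018) and SNHG16 (-0.045) with HFD and SNHG16 (-0.028) with HA-TRIM15, and with no filter on low counts SNHG16 (-0.01) with HA-TRIM15. Leaving out 1 library gave -0.0089 to 0.21 for SNHG5 with HFD, and with HA-TRIM15 -0.26 to 0.17 for SNHG5, -0.072 to 0.0044 for SNHG6, -0.0098 to 0.075 for SNHG15 and -0.022 to 0.027 for SNHG16. It gave -0.12 to 0.0036 for SNHG6 with shYY2, and with shFOXRED1 -0.003 to 0.079 for GAS5 and -0.0055 to 0.25 for SNHG12. The cause was not tested.

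Replicate numbers in the titles were not used to pair the samples in the main fits. Correlations between same-numbered libraries reached 0.118, and no experiment had all 3 above 0.1. These values do not settle whether libraries were paired. In the FOXRED1 experiment they were 0.046, 0.0245 and 0.118, and a replicate block gave 3157 genes higher and 3636 lower in place of 2650 and 3102. With a replicate block, 3 members were lower with shFOXRED1 in place of 2, SNHG6 being added (adjusted p = 0.0401), and the counts of the other comparisons were 7, 6, 1 and 5 as before. SNHG5, with as few as 31 counts, is limited by depth.

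With DESeq2 in place of edgeR's scaling or test, 107 of 112 counts of related lists stayed within 1.5 times. Counts of members whose effects differ between 2 experiments moved by at most 1 under other fits. In the window from 100 bases before the start, CCATNTT was in 1 of 8 promoters, ZFAS1.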
